A study of Rattus norvegicus with 12 samples.

Results

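The guanabenz analogues named in the labels only as Compound 3 and Compound 6 were compared directly in PC12 cells that express a mutant huntingtin fragment. PC12 is a rat pheochromocytoma line, a tumour line of the adrenal chromaffin lineage, and the 1 line used makes GFP-mHtt-74Q, an exon-1 piece of mutant huntingtin with a long glutamine tract fused to GFP, when doxycycline is added. The comparison used 6 of the 12 arrays of the series, 3 titled for Compound 3 and 3 titled for Compound 6, each at 10 µM for 48 h in cells induced with doxycycline at 1 µg/ml. The other 6 arrays were 3 of non-induced cells with the vehicle DMSO and 3 of induced cells with DMSO, and they entered the fit as further estimates of the spread between arrays. All 9 arrays of induced cells therefore share doxycycline and the fragment, and the non-induced arrays have neither. Dose and time were matched, so 1 pair of compounds was compared. The labels give no structure for either compound and no treatment time for the DMSO arrays.

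Guanabenz is an agonist of alpha-2 adrenoceptors that lowers blood pressure. It is also known for prolonging phosphorylation of the translation factor eIF2α under stress, an action attributed to the phosphatase subunit PPP1R15A. Sterol synthesis, which becomes a theme below, runs from acetyl-CoA through mevalonate and squalene to cholesterol, and its genes are known to be switched on together by the factor SREBP2 when sterols in the endoplasmic reticulum run low. Chromaffin cells make and store catecholamines, for which tyrosine hydroxylase (Th) is the first enzyme and dopamine beta-hydroxylase (Dbh) makes noradrenaline.

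Values are log2 expression summaries of array features, and differences are given as Compound 6 minus Compound 3 unless stated, with ± for the standard error of the limma fit and 3 arrays per group. Of 68842 features that are not controls, 34422 were tested, those whose mean over the 12 arrays reached 4.63 log2 units, the median of such means. A difference passed where limma's p, adjusted by Benjamini-Hochberg over these features, was under 0.05. The 6 arrays were alike in distribution, with medians of 4.61 to 4.66 and 95th percentiles of 10.20 to 10.27 with Compound 3 and 10.18 to 10.27 with Compound 6. Correlations were 0.9975 to 0.9977 among Compound 3 arrays, 0.9978 to 0.9981 among Compound 6 arrays and 0.9973 to 0.9978 between the compounds. The median SD of a feature was 0.07 among Compound 3 arrays and 0.0666 among Compound 6 arrays, against 0.0945 among induced DMSO arrays, of which the third had the lowest 95th percentile, 10.09. Compound 3 array 3 stood below its group in several chromaffin genes, and values without it are given there. It was also the lowest Compound 3 array for other genes, among them Itga1, Chrnb4 and P2ry12.

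The genes that were higher with Compound 6 included an integrin, a nuclear receptor and a corepressor, and those that were lower belonged to sterol synthesis. In all 15 features passed, 0.0436% of those tested. Of these, 8 were higher with Compound 6 (0.0232%) and 7 were lower (0.0203%). They comprised 8 named genes, 5 higher and 3 lower, and 7 features without a gene name. At an unadjusted p under 0.05 there were 2802 features (8.14%), and the arrays of the compounds did not overlap in 4835 (14.0%).

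**Figure D1:**
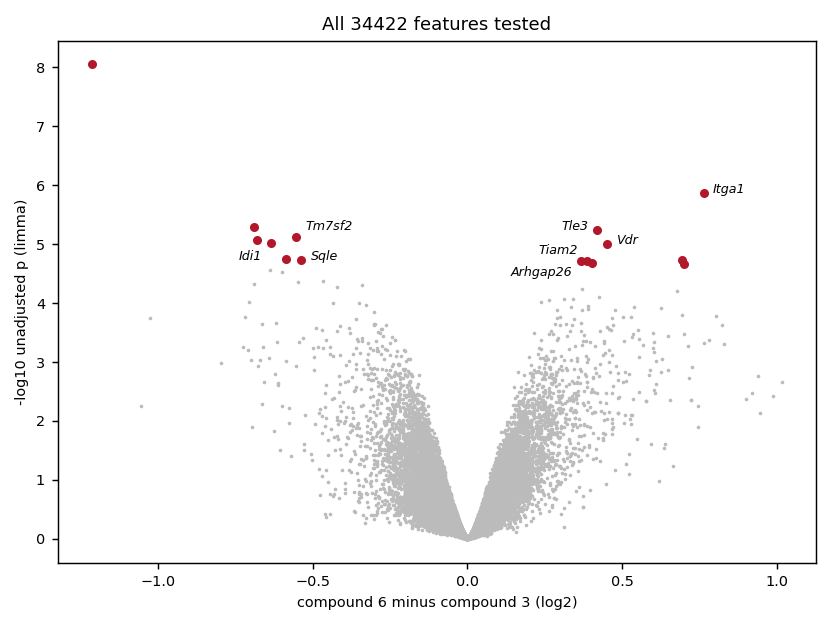
Each point is 1 of the 34422 features tested, with the log2 difference (Compound 6 minus Compound 3) on the x axis and −log10 of the unadjusted limma p on the y axis. Red points are the 15 that passed, and italic labels mark the 8 with a gene name. The unnamed feature at −1.21 stands apart, and the other 14 have adjusted p-values from 0.023 to 0.049996.

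Most of these calls lay close to the threshold. Of the 15 features, 7 had the same adjusted p of 0.049996. The one feature that passed in all 22 alternative settings, TC1500001407.rn.1, carries no gene name. It was 8.01, 7.86 and 7.98 on the Compound 3 arrays and 6.91, 6.65 and 6.65 on the Compound 6 arrays, so the groups lay more than 0.9 log2 units apart. Its difference was −1.21 ± 0.08 (95% interval −1.39 to −1.04, adjusted p = 0.000306), which is 2.32-fold higher with Compound 3. Induced DMSO arrays held 6.97, 6.91 and 6.83, close to the Compound 6 arrays. With 1 array left out, the count was 1 without the second induced DMSO array, any of the Compound 3 arrays or Compound 6 array 3. It was 2 without the first or second non-induced array or Compound 6 array 2, and 3 without Compound 6 array 1. It was 4 if the third non-induced array was dropped, 4 if the third induced DMSO array was, and 9 if the first induced DMSO array was.

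Itga1, the alpha-1 subunit of a collagen-binding integrin, was higher with Compound 6. Its level was 6.92, 6.89 and 6.70 with Compound 3 and 7.58, 7.48 and 7.74 with Compound 6. The Compound 6 arrays lay at or above the induced DMSO arrays (7.43, 7.48 and 7.44), and the Compound 3 arrays lay below them. The difference was 0.76 ± 0.08 (95% interval 0.58 to 0.94, adjusted p = 0.023), or 1.70-fold, a call lost in 7 of 22 alternatives. Against induced DMSO, Itga1 fell by 0.61 with Compound 3 (adjusted p = 0.0492) and lay at 0.15 with Compound 6 (adjusted p = 0.886). These comparisons with vehicle share the DMSO arrays. The features TC0200002941.rn.1 and TC0200002940.rn.1, whose identifiers directly precede that of the Itga1 feature, TC0200002942.rn.1, were also higher, by 0.69 ± 0.10 and 0.70 ± 0.10 (both adjusted p = 0.049996). The latter was named after its values were seen. They carry no gene name, and the 3 calls need not be separate transcripts. TC0200002941.rn.1 was 7.85, 7.88 and 7.53 on the Compound 3 arrays and TC0200002940.rn.1 was 7.43, 7.47 and 7.07, so the third was lowest in both. Over the alternatives their differences ran from 0.58 to 0.76 and from 0.57 to 0.77.

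Vdr, the nuclear receptor for vitamin D, lay below vehicle with both compounds and lower with Compound 3. It was 6.31, 6.31 and 6.30 with Compound 3 and 6.77, 6.80 and 6.70 with Compound 6, against 7.22, 7.37 and 7.45 on induced DMSO arrays. The 3 groups did not overlap. The difference between compounds was 0.45 ± 0.06 (95% interval 0.32 to 0.58, adjusted p = 0.0426), or 1.37-fold, a call lost in 12 of 22 alternatives. Against vehicle, Vdr fell by 1.04 with Compound 3 (adjusted p = 5.76e-05) and by 0.59 with Compound 6 (adjusted p = 0.0234). Vdr was the 1 feature that passed for Compound 6 against vehicle (0.00291% of those tested), whereas 8 passed for Compound 3 (0.0232%). Among 15 measured genes of vitamin D and retinoid receptors and their targets Vdr was the 1 that passed, and their median difference was 0.05, with 0.03 without Compound 6 array 2 and 0.08 without Compound 6 array 3.

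Tle3, a Groucho-family corepressor, was 8.0, 8.07 and 7.90 with Compound 3 and 8.45, 8.36 and 8.42 with Compound 6. The difference was 0.42 ± 0.05 (95% interval 0.30 to 0.54, adjusted p = 0.0426), lost in 13 of 22 alternatives. Induced DMSO arrays held 8.26, 8.34 and 8.36, between the 2 compounds or level with the lowest Compound 6 array. Tiam2, an exchange factor for the GTPase Rac, was 6.53, 6.62 and 6.50 with Compound 3 and 6.93, 6.90 and 6.98 with Compound 6. That is a difference of 0.39 ± 0.06 (95% interval 0.27 to 0.51, adjusted p = 0.049996). Arhgap26 was 8.22, 8.21 and 8.17 with Compound 3 and 8.61, 8.47 and 8.62 with Compound 6, a difference of 0.37 ± 0.05 (95% interval 0.25 to 0.48, adjusted p = 0.049996). The calls of Tiam2 and Arhgap26 were each lost in 15 of 22 alternatives. In the non-induced cells Itga1, Tle3, Tiam2 and Arhgap26 were higher than on any array of induced cells.

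**Figure D2:**
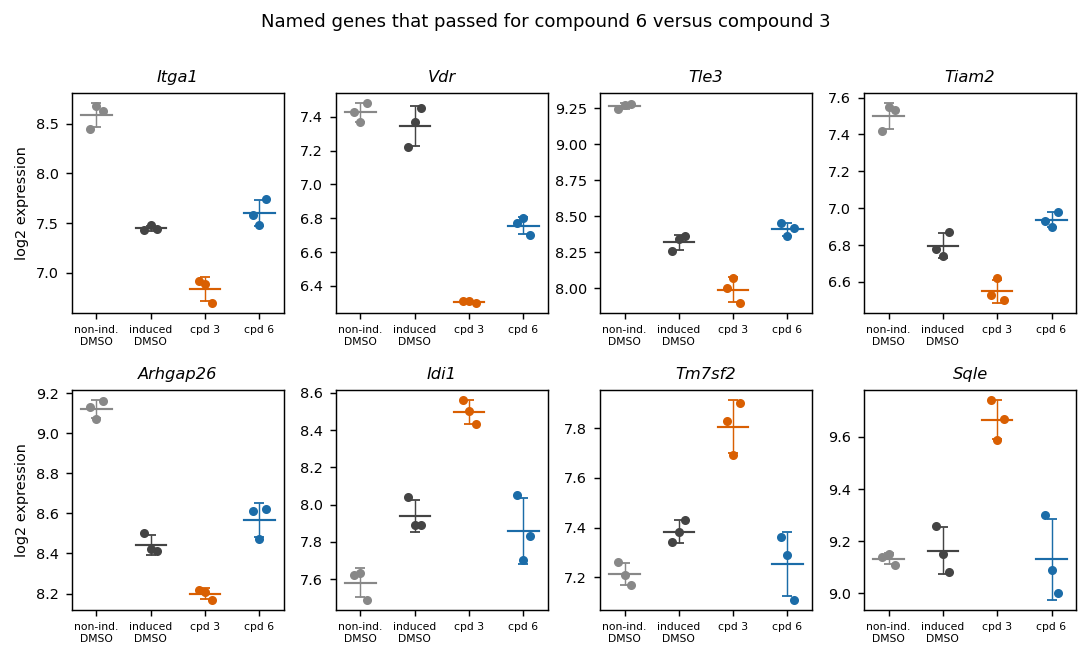
Log2 expression (y axis) of the 8 named genes that passed, on every array of the 4 groups: non-induced DMSO, induced DMSO, Compound 3 and Compound 6. Points are arrays, horizontal lines are means and bars are SDs (n = 3). Compound 3 and Compound 6 arrays do not overlap in any panel.

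Sterol synthesis genes lay lower with Compound 6 than with Compound 3. Of 20 listed genes 17 were measured, and 17 of these had a difference below 0, where 55.4% of all features did, and 3 passed (0.0203% of all features passed as lower). The median difference was −0.39, beside −0.01 over all features tested. At an unadjusted p under 0.05, 16 of the 17 were lower, against 4.26% of all features, and in 15 the arrays of the compounds did not overlap (8.28% of all features). Leaving out any 1 compound array gave medians from −0.52 to −0.31, with 17 of 17 below 0 each time. This list was chosen with an earlier result on sterol genes and Compound 3 known, so it is not independent evidence of a direction.

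The 3 members that passed catalyse steps before and after squalene. Idi1, the isomerase that makes dimethylallyl diphosphate, was 8.56, 8.50 and 8.43 with Compound 3 and 8.05, 7.70 and 7.83 with Compound 6. Its difference was −0.64 ± 0.08 (95% interval −0.82 to −0.45, adjusted p = 0.0426), or 1.55-fold higher with Compound 3. Sqle, the squalene epoxidase, was 9.74, 9.59 and 9.67 with Compound 3 and 9.30, 9.09 and 9.0 with Compound 6, a difference of −0.54 ± 0.08 (95% interval −0.70 to −0.37, adjusted p = 0.049996). Tm7sf2, a sterol C14 reductase, was 7.83, 7.69 and 7.90 with Compound 3 and 7.36, 7.29 and 7.11 with Compound 6. Its difference was −0.55 ± 0.07 (95% interval −0.71 to −0.40, adjusted p = 0.0426). The calls of Idi1, Tm7sf2 and Sqle were lost in 13, 13 and 14 of 22 alternatives, with the same sign in each.

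Against induced DMSO the same 17 genes had a median of 0.37 with Compound 3 and −0.03 with Compound 6, and the 2 medians share the DMSO arrays. Idi1 lay at 0.56 with Compound 3 (adjusted p = 0.0776) and at −0.08 with Compound 6 (adjusted p = 0.981). Sqle lay at 0.50 (adjusted p = 0.0776) and −0.03 (adjusted p = 1.0), and Tm7sf2 at 0.42 (adjusted p = 0.111) and −0.13 (adjusted p = 0.886). None of these passed, while the direct differences between the compounds did.

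Other members did not pass. Cyp51, the lanosterol demethylase, was 10.01, 9.89 and 9.83 with Compound 3 and 9.46, 9.28 and 9.19 with Compound 6 (−0.60 ± 0.09, adjusted p = 0.0597). Nsdhl, which works in removal of the C4 methyl groups, lay at −0.36 ± 0.07 (adjusted p = 0.123), and Sc5d, the sterol desaturase, at −0.30 ± 0.06 (adjusted p = 0.124). The most negative value, named after it was seen, was that of the methyl oxidase Msmo1, −0.67 ± 0.15 (adjusted p = 0.166). At the other end Pmvk, the phosphomevalonate kinase, lay at −0.07 ± 0.07 (95% interval −0.22 to 0.08). In the list of sterol sensing, uptake and efflux 0 of 17 passed and the median was −0.09. It was −0.05 without Compound 3 array 3 and −0.06 without Compound 6 array 3. Srebf2, which encodes SREBP2, lay at −0.30 ± 0.07 (adjusted p = 0.2), and the lysosomal cholesterol carrier Npc2 at −0.22 ± 0.06 (adjusted p = 0.304). Insig1, the sterol-regulated retention protein of SREBP, lay at −0.45 ± 0.17 (adjusted p = 0.47). It was 8.71, 8.41 and 8.49 with Compound 3 and 8.46, 7.97 and 7.83 with Compound 6, so the groups overlapped. In fatty acid synthesis and desaturation 0 of 20 passed, with a median of −0.14. Acaca, the acetyl-CoA carboxylase, lay at −0.19 (adjusted p = 0.381), and the acyl-CoA synthetase Acsl1 at 0.15 (adjusted p = 0.409).

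**Figure D3:**
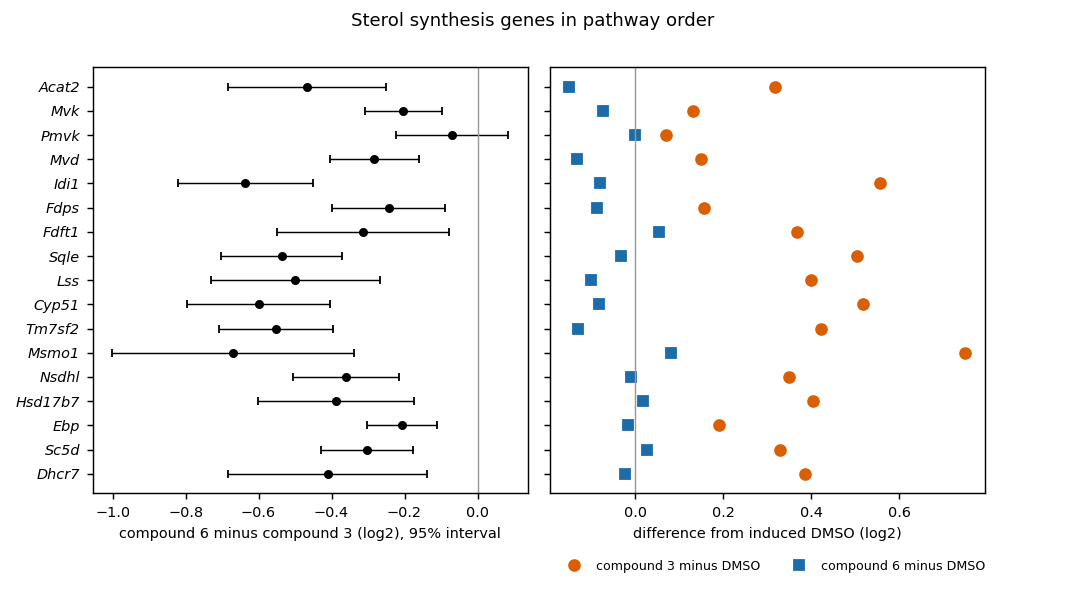
The 17 measured sterol synthesis genes from acetyl-CoA (top) to cholesterol (bottom). The left panel gives the log2 difference Compound 6 minus Compound 3 with its 95% interval, and the right panel gives each compound minus induced DMSO (log2), both from the same DMSO arrays. On the left 17 of 17 points lie below 0, from −0.67 to −0.07.

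Promoter sequences are shown for 4 of these genes because the members' differences lay on the same side. RefSeq promoters (assembly GRCr8) matched 14 of the 17 genes. The 250 bases upstream of each start were searched on both strands for the CCAAT box (CCAAT, or ATTGG on the other strand), the motif of the factor NF-Y, and for a sterol regulatory element written TCACNCCAC, which does not overlap it. A CCAAT box was in 11 of the 14 windows and in 34.0% of 33469 promoter windows. The sterol element as spelled was in 0 of the 14 and in 0.974% of all windows. Base composition was not matched, and a match describes letters only. Below, the 160 bases next to the start are given 5′ to 3′ on the gene's strand, with CCAAT boxes in capitals: Idi1 at chr17:66547525-66547684 (minus strand), Tm7sf2 at chr1:212789542-212789701 (minus), Nsdhl at chrX:155817200-155817359 (plus) and Cyp51 at chr4:30991533-30991692 (plus).
Idi1: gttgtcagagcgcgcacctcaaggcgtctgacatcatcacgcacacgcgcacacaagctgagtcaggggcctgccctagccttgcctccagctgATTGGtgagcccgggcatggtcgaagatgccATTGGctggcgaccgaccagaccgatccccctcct
Tm7sf2: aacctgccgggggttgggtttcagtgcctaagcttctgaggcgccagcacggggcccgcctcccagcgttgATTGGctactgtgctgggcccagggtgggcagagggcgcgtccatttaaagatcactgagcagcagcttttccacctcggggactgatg
Nsdhl: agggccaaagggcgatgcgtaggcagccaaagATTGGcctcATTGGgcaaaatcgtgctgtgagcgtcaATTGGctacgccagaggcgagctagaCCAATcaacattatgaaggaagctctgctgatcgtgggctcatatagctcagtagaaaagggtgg
Cyp51: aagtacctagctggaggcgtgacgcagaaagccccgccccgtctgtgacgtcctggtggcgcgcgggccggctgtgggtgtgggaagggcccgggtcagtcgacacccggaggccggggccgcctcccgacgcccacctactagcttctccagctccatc
The 160 bases shown hold 2 CCAAT boxes for Idi1, 1 for Tm7sf2 and 4 for Nsdhl. Those of Cyp51 hold 0. A relation between CCAAT boxes and the size of the differences was not tested.

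Lysosome genes lay lower with Compound 6 as a group, with small differences and 0 that passed. Among 26 lysosomal hydrolases and membrane proteins 23 lay below 0 (55.4% of all features), the median was −0.12, and 14 were lower at an unadjusted p under 0.05 (4.26% of all features). The protective protein Ctsa was 0.28 ± 0.05 log2 units lower (adjusted p = 0.127) and the protease Ctsd 0.31 ± 0.07 lower (adjusted p = 0.147). The intervals of all 26 lay within 1.5-fold. The median of 17 proton pump subunits was −0.14, with Atp6v1d at −0.25 (adjusted p = 0.251) and Atp6v1b2, on the other side, at 0.25 (adjusted p = 0.158). The 13 genes of the MiT/TFE factors and their regulators had a median of −0.14, and of −0.08 without Compound 3 array 3, with the folliculin gene Flcn at −0.29 (adjusted p = 0.147). Gpnmb, a lysosomal glycoprotein known as a MiT/TFE target, was 8.11, 7.82 and 8.27 with Compound 3 and 7.10, 7.26 and 6.76 with Compound 6. The groups did not overlap, yet the difference of −1.03 ± 0.19 (95% interval −1.44 to −0.61, adjusted p = 0.123) did not pass. In 25 autophagy genes the median was −0.05, with the receptor Optn at −0.23 (adjusted p = 0.158) and Map1lc3b, which encodes an ATG8-family protein, at −0.19 (adjusted p = 0.165). Of 33 proteasome genes 32 lay below 0 with a median of −0.11. Psmd11 and Psmd6, regulatory-particle subunits, lay at −0.18 and −0.15 (adjusted p = 0.254 and 0.305). The proteasome genes lower at an unadjusted p under 0.05 numbered 14 (4.26% of all features were), and between 4 and 18 when 1 compound array was left out, with 4 without Compound 6 array 1, 6 without Compound 3 array 3, 7 without Compound 6 array 3 and 8 without Compound 3 array 2.

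Genes that mark the chromaffin cell lay higher with Compound 6 than with Compound 3, and none passed singly. Of 14 such markers 11 were measured, 10 lay above 0 (43.7% of all features did) and 9 were higher at an unadjusted p under 0.05 (3.88%). In 9 the Compound 6 arrays lay above the Compound 3 arrays without overlap (5.77%). Their median was 0.53, and 0.29 without Compound 3 array 3, with 8 of 11 then higher at an unadjusted p under 0.05. Against induced DMSO the median of these 11 markers was −0.35 with Compound 3 and 0.02 with Compound 6. Both medians share the DMSO arrays, and 0 of the 11 passed in either comparison. Th was 11.93, 11.89 and 10.84 with Compound 3 and 12.55, 12.07 and 12.28 with Compound 6. The groups did not overlap, and the third Compound 3 array lay more than 1 log2 unit below the others. The difference was 0.75 ± 0.25 (95% interval 0.19 to 1.30, adjusted p = 0.396), and 0.39 without that array. Dbh was 6.76, 6.75 and 6.03 with Compound 3 and 7.14, 6.93 and 7.07 with Compound 6, a difference of 0.53 ± 0.17 (adjusted p = 0.337), and 0.29 without the same array. Slc18a1, the vesicular monoamine transporter, and Ddc, the aromatic amino acid decarboxylase, were named after their values were seen. They lay at 1.02 ± 0.26 (adjusted p = 0.213) and 0.92 ± 0.25 (adjusted p = 0.251), and at 0.70 and 0.59 without Compound 3 array 3.

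Other chromaffin genes varied less among the arrays. Gch1, an enzyme of tetrahydrobiopterin synthesis, was 9.84, 9.95 and 9.74 with Compound 3 and 10.28, 10.12 and 10.28 with Compound 6 (0.38 ± 0.08, adjusted p = 0.134). Cyb561, the cytochrome of secretory vesicles that supports noradrenaline synthesis, lay at 0.65 ± 0.13 (adjusted p = 0.134). Of the secretory granins, Chgb lay at 0.29 ± 0.06 (adjusted p = 0.134). The lineage factor Hand2 lay at 0.55 ± 0.11 (adjusted p = 0.127), its relative Hand1 at 0.28 ± 0.07 (adjusted p = 0.213), and the neurotrophin receptor Ngfr at 0.69 ± 0.12 (adjusted p = 0.123). Without Compound 3 array 3 the values of Gch1, Cyb561, Chgb, Hand2 and Ngfr were 0.33, 0.49, 0.23, 0.43 and 0.57. Over the alternatives Hand1 ran from 0.19 to 0.34. By list, the median was 0.23 for 13 genes of catecholamine synthesis and storage (0.09 without Compound 3 array 3). It was 0.28 for 11 sympathoadrenal lineage factors (0.19 without that array) and 0.07 for 17 granins, neuropeptides and processing enzymes (0.05 without it). In bulk RNA, fewer cells of a type and less RNA per cell cannot be told apart.

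**Figure D4:**
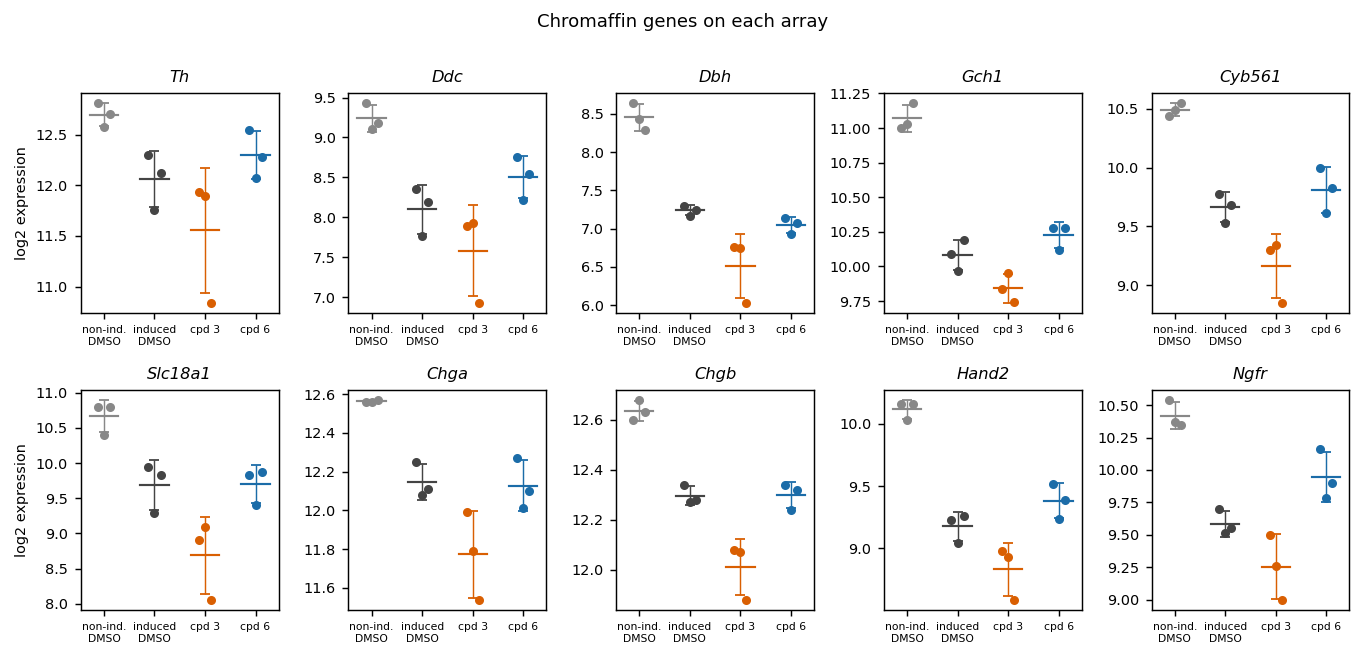
Log2 expression (y axis) of 10 chromaffin genes on every array of the 4 groups, with means as lines and SDs as bars (n = 3). Compound 6 arrays lie above Compound 3 arrays in each panel, and the third Compound 3 array is the lowest point of each panel. The 10 are only part of the chromaffin marker and catecholamine lists. The members below 0, 1 of 11 markers (Gata3, −0.06) and 2 of 13 catecholamine genes (the lower Maoa, −0.07), are not shown.

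Markers of other cell types differed less between the compounds. The 4 of 9 fibroblast markers above the filter had a median difference of 0.02 and a mean level of 7.128 to 7.138 over the Compound 3 arrays and 7.195 to 7.27 over the Compound 6 arrays. Dcn, Lum, Pdgfra, Fap and Postn were under the filter, and Thy1, a surface glycoprotein that PC12 cells also make, lay at 0.39 ± 0.07 (adjusted p = 0.11). The 4 measured Schwann and glial markers had a median of 0.00 and mean levels of 5.375 to 5.47 and 5.41 to 5.452. Of the macrophage markers 3 of 9 were measured, with Csf1r, Aif1, Ptprc, Cd14, Adgre1 and Itgam under the filter, a median of −0.09 (0.01 without Compound 3 array 2) and mean levels of 6.087 to 6.327 and 6.143 to 6.203. The 6 measured epithelial markers lay above 0 (43.7% of all features did), with mean levels of 7.567 to 7.73 and 7.77 to 7.843. Of the keratins, Krt8 lay at 0.35 ± 0.09 (adjusted p = 0.214) and Krt18 at 0.45 ± 0.13 (adjusted p = 0.29). The mean level of the 11 chromaffin markers was 9.058 to 9.597 with Compound 3 and 9.755 to 10.048 with Compound 6, so PC12's own defining markers were high in both groups. The part of any of these cell types in the results was not tested.

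Among receptors, channels and signalling regulators, several genes that did not pass between the compounds had non-overlapping arrays, as did 14.0% of all features. The genes named here were among those with the smallest p of a direction or list, so their lack of overlap is not separate support. Ptprr, a tyrosine phosphatase that acts on MAP kinases, was 6.41, 6.25 and 6.19 with Compound 3 and 6.67, 6.60 and 6.69 with Compound 6 (0.37 ± 0.06, adjusted p = 0.0855). It fell by 0.55 with Compound 3 against vehicle (adjusted p = 0.0159) and lay at −0.18 with Compound 6 (adjusted p = 0.875). Chrnb4, a nicotinic receptor subunit, was 7.09, 6.88 and 6.58 with Compound 3 and 7.62, 7.42 and 7.54 with Compound 6, and the groups did not overlap (0.68 ± 0.11, adjusted p = 0.0895). Its difference ran from 0.54 to 0.80 over the alternatives. Among 21 potassium channel genes 16 lay above 0 (43.7% of all features) and 7 were higher at an unadjusted p under 0.05 (3.88% of all features), with a median of 0.08. Of 16 sodium and calcium channel genes 9 lay above 0 and 7 below, with a median of 0.02 that changed sign in some alternatives. Of 10 guanabenz receptor and imidazoline-site genes 3 lay above 0 and 7 below (55.4% of all features), with a median of −0.03. The lowest member was Htr3a at −0.54, whose values are given below. At an unadjusted p under 0.05, 2 of the 10 were lower (4.26% of all features). In 3 the Compound 6 arrays lay below without overlap (8.28% of all features). Kcnh3 lay at 0.34 ± 0.06 (adjusted p = 0.108), and Kcnn3, a calcium-activated channel, at 0.76 ± 0.16 (adjusted p = 0.136). Against vehicle Kcnh3 fell by 0.44 with Compound 3 (adjusted p = 0.0484) and lay at −0.10 with Compound 6 (adjusted p = 0.886).

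Other signalling and neuronal genes did not pass either. Of 24 MAP kinase feedback regulators 19 lay above 0 (43.7% of all features did), with the Ras-pathway inhibitor Spred2 at 0.34 ± 0.06 (adjusted p = 0.124). Of 22 neuronal differentiation genes 17 lay above 0 (43.7% of all features), with Dpysl3, a growth cone protein, at 0.33 ± 0.06 (adjusted p = 0.11). Nrn1, a neurite-promoting protein, lay at 0.26 ± 0.04 (adjusted p = 0.108). The sodium channel subunit Scn3b lay at 0.39 ± 0.07 (adjusted p = 0.112), and Vgf, a neurotrophin-induced granin, at 0.55 ± 0.12 (adjusted p = 0.163). P2ry12, a purinergic receptor, was 6.08, 6.12 and 5.40 with Compound 3 and 6.60, 6.50 and 6.64 with Compound 6 (0.71 ± 0.15, adjusted p = 0.143), again with the third Compound 3 array lowest. On the other side Htr3a, a serotonin-gated channel subunit, was 10.69, 10.52 and 10.44 with Compound 3 and 10.15, 10.03 and 9.84 with Compound 6 (−0.54 ± 0.11, adjusted p = 0.136). The vesicle protein Syt5 lay at −0.30 ± 0.05 (adjusted p = 0.118).

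RNA of genes in the eIF2α pathway, the known stress target of guanabenz, showed small differences between the compounds. Phosphorylation of eIF2α itself is not measured by RNA. Ppp1r15a was 7.12, 7.12 and 7.15 with Compound 3 and 7.01, 7.05 and 6.96 with Compound 6. The arrays did not overlap, and the difference of −0.12 had a 95% interval of −0.22 to −0.02 (adjusted p = 0.47). The constitutive phosphatase subunit Ppp1r15b lay at −0.06 (95% interval −0.15 to 0.03), the translation-controlled factor Atf4 at −0.03 (−0.14 to 0.07), the stress factor Ddit3 at −0.09 (−0.28 to 0.10) and the chaperone Hspa5 at −0.04 (−0.12 to 0.05). Among 33 genes of the eIF2α kinases, phosphatase and ATF4 targets 0 passed, 25 lay below 0 (55.4% of all features) and the median was −0.05. At an unadjusted p under 0.05, 8 of the 33 were lower (4.26% of all features), and 5 without Compound 6 array 1 or array 3. In 13 the Compound 6 arrays lay below the Compound 3 arrays without overlap (8.28% of all features). The amino acid transporter subunit Slc3a2 was 10.39, 10.27 and 10.34 with Compound 3 and 10.05, 10.12 and 10.04 with Compound 6 (−0.26 ± 0.05, adjusted p = 0.124). The intervals of all 33 lay within 1.5-fold, as did those of 28 endoplasmic reticulum chaperone and unfolded protein response genes and 22 cytosolic heat shock genes, whose medians were −0.01 and −0.04. Both of these medians changed sign in some alternatives.

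The alpha-2 receptor genes Adra2b and Adra2c lay at 0.06 (95% interval −0.06 to 0.18) and −0.02 (−0.19 to 0.15), and the imidazoline-site gene Nisch at 0.04 (−0.05 to 0.13). Htt, the cell's own huntingtin gene, lay at −0.12 (95% interval −0.34 to 0.10), with the opposite sign without Compound 3 array 3. Of 27 huntingtin partners 0 passed, with a median of 0.00. The 32 ribosomal protein genes had a median of 0.01 with 0 at an unadjusted p under 0.05, and 37 nuclear genes of oxidative phosphorylation had a median of −0.02.

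Cell division genes lay slightly higher with Compound 6. Of 38 DNA replication and S phase genes 35 lay above 0 (43.7% of all features did), with a median of 0.07. Of 38 G2/M genes 34 did, with a median of 0.08. None passed. Pold1, a DNA polymerase subunit, lay at 0.27 ± 0.08 (adjusted p = 0.298) and the kinetochore gene Nuf2 at 0.27 ± 0.09 (adjusted p = 0.407). The G2/M genes higher at an unadjusted p under 0.05 numbered 3 of 38 (3.88% of all features), and in 1 of 38 the arrays did not overlap with Compound 6 higher (5.77% of all features), so both counts were near or under the background. The G2/M median was 0.04 without Compound 3 array 3, with 26 of 38 above 0, 0.05 without Compound 6 array 1 and 0.13 without Compound 6 array 2. The number of S phase genes higher at an unadjusted p under 0.05 was 9 of 38 (3.88% of all features). It was 11 without Compound 6 array 2, 8 without Compound 3 array 1 and 7 without Compound 3 array 2. It was 1 without Compound 6 array 1 and 2 without Compound 3 array 3 or Compound 6 array 3, and these lowest counts were near the background.

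**Figure D5:**
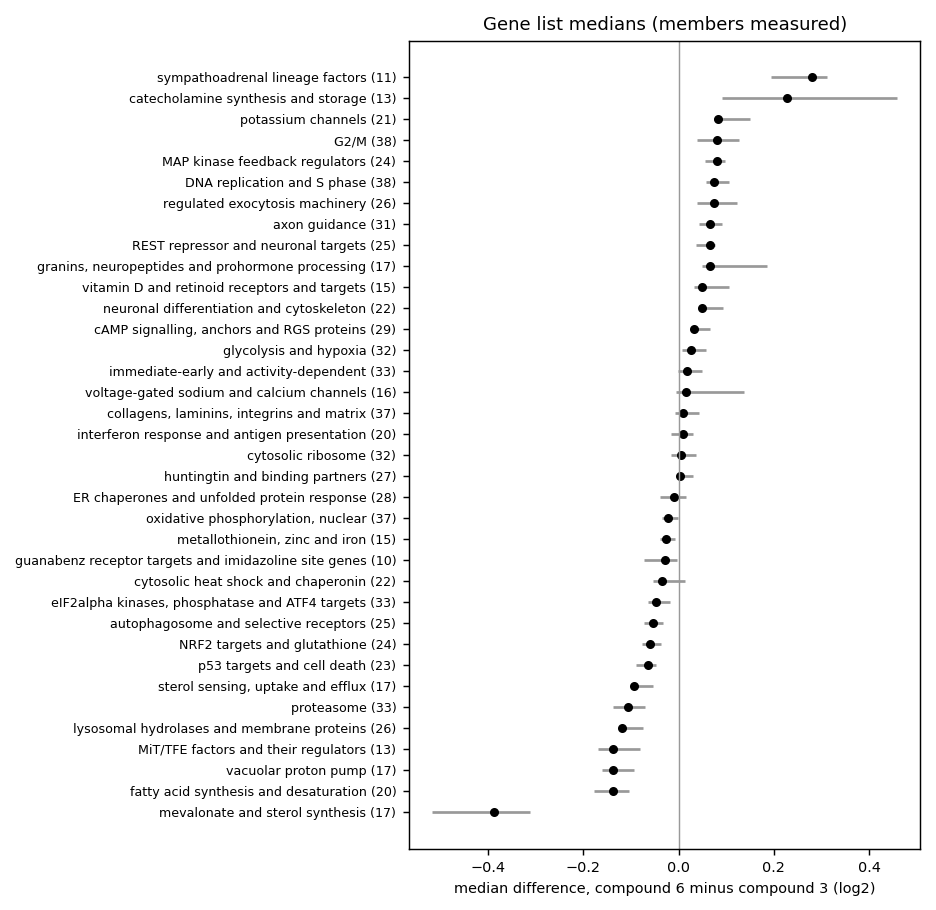
Points give the median log2 difference, Compound 6 minus Compound 3, of each of 36 gene lists, with the number of measured members in brackets. Grey lines run from the lowest to the highest median over the alternative settings. Sterol synthesis lies lowest at −0.39, and the sympathoadrenal factors lie highest at 0.28 (0.19 without Compound 3 array 3).

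The size of the differences is described here by the 95% intervals of single features, which were not adjusted for the number of features tested. Over the features tested the median absolute difference was 0.0567 log2 units. The 95% interval lay within 1.5-fold in either direction for 33679 features (97.8%) and within 2-fold for 34347 (99.8%). Of the 15 features that passed, 8 differed by at least 1.5-fold and 1 by at least 2-fold.

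The other features without a gene name that passed had smaller differences than TC1500001407.rn.1. TC0200003316.rn.1 was 5.74, 5.48 and 5.52 with Compound 3 and 4.98, 4.83 and 4.86 with Compound 6, a difference of −0.69 ± 0.09 (adjusted p = 0.0426). TC1600001118.rn.1 was 4.52, 4.43 and 4.48 with Compound 3 and 4.94, 4.83 and 4.87 with Compound 6, close to the filter level of 4.63, a difference of 0.40 ± 0.06 (adjusted p = 0.049996). TC1700001999.rn.1 and TC0200004563.rn.1, named after their values were seen, lay at −0.68 ± 0.09 (adjusted p = 0.0426) and −0.59 ± 0.08 (adjusted p = 0.049996). Rps16, a ribosomal protein gene, lay at −0.64 ± 0.09 (adjusted p = 0.0596), and at −0.29 as the mean of its 2 features. Ribosomal protein genes have many near-identical copies in the genome, so what this feature measures is uncertain.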

How the data were processed

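Total RNA from 12 samples was hybridised to Affymetrix Rat Transcriptome Array 1.0, 1 array each. The values deposited by the authors are log2 expression summaries per feature. RMA and Affymetrix Expression Console are named, without versions, per the submitters' processing notes. Robust multi-array averaging, as RMA stands for, is known to compress the differences of dim features. The number of arrays limits the precision.

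Of 70580 features 1738 controls were left out. Platform annotation, checked against RefSeq GRCr8 names, gave 1 symbol to 23446 of 68842 features, several to 505 and none to 44891. Of features tested, 16054 carried 1 symbol, for 15313 genes, and no gene had features called in opposite directions. No arrays were identical (0 pairs).

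The 12 arrays were fitted together, with a mean for each of 4 groups, in limma 3.58.1 in R 4.3.3 (lmFit, contrasts.fit, eBayes without trend), with 8 residual and 3.27 prior degrees of freedom. Adjusted p-values are limma's with Benjamini-Hochberg adjustment over 34422 features. The median standard error was 0.072. The fit was tested on simulated data. The labels number the replicates without calling them separate cultures. The p-values therefore reflect only how these samples vary, and that may be technical variation. Doxycycline and the fragment cannot be told apart.

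The genes and lists were chosen with earlier results of these data known. Named genes were those that passed, filled to 12 per direction by smallest p, the 2 members of each list with the smallest p and any that passed, 25 set genes, and up to 2 unnamed features per direction. For a gene with several features the brightest was used. Genes set for naming but not shown were under the filter or are not analysed here. List medians use members above the filter. Alternatives changed the filter, scaling, variance model, replicate block, arrays fitted and handling of several features. Counts of list members without each compound array were added after seeing the data.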

Additional observations from a re-analysis of the deposited data

How the results depend on the processing

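The number of features that passed between the compounds, 15, depended on the settings, while the signs of those 15 did not. It was 2 with no filter, 6 with median scaling, 133 with array weights, 1 from only the 6 arrays compared and 1 to 9 with 1 array left out. With the replicate number as a block it was 45, of which 13 were among the 15. Same-numbered deviations of Compound 3 and Compound 6 arrays correlated at −0.0297 to 0.259, above 0.1 in 2 of 3 pairs. Over all groups 10 of 18 same-numbered pairs were above 0.1 (−0.169 to 0.452). Of pairs with other numbers 6 of 36 were (−0.464 to 0.42). The labels do not call the numbers pairs, and the main fit did not pair them. Whether arrays with the same number share variation was not tested. With the 75th percentile filter, cyclic loess, quantile normalisation, a robust prior with intensity trend, or gene means it was 22, 16, 22, 14 and 15. Of the 15, 13 kept their sign in 22 alternatives, and TC1600001118.rn.1 and TC0200003316.rn.1 did in 21, since both are removed by the 75th percentile filter. Of 98 named genes or features that did not pass, 27 passed in at least 1 alternative. For Compound 3 against induced DMSO (8 features) the count was 3 with no filter, 22 with the 75th percentile filter, 4 with median scaling, 18 with the trend, 13 with array weights, 26 with the replicate block, 2 from 6 arrays and 2 to 6 with 1 array left out. For Compound 6 against induced DMSO (1 feature) it was 3 with array weights, 0 with no filter, the replicate block or 6 arrays, and 0 to 1 with 1 array left out. In the 14 settings at 0 by limma, 1144 to 3488 features had an unadjusted p under 0.05. The cause of these shifts was not tested. Of 36 list medians 28 kept their sign and 8 did not, those of endoplasmic reticulum chaperones, heat shock, ribosome, sodium and calcium channels, immediate-early genes, huntingtin partners, interferon and matrix. Hspa5 changed sign with quantile normalisation and cyclic loess. The precision is that of 3 arrays a group.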
